A study of Homo sapiens with 6 samples.

Results

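Epidermal growth factor (EGF) family ligands and their ERBB receptors were examined in 12Z cells, an established human endometriotic epithelial cell line grown in serum-containing medium. The 9 genes were picked by name from the deposited tables, in which all 9 had a row among 16279 genes. They are the receptors EGFR, ERBB2 and ERBB3, the EGFR ligands AREG, EREG, HBEGF, TGFA and BTC, and the neuregulin NRG1. The cells were left untreated (Control, labelled NC, n = 3) or received 10 ng/mL of recombinant human chemerin (rhChem157S, labelled rhChemerin, n = 3) for 48 h before RNA was sequenced. Both groups are the same unmodified line, and whether the 3 biological replicates of a group came from separate passages is not stated, so p-values measure only the spread between these libraries. Between 35430881 and 38341643 reads were counted on genes per library, so that 1 count was worth 0.0261 to 0.0282 CPM (the count scaled by the library total). CPM values of genes are given after TMM scaling, whereas FPKM uses the plain library total. The library rhChem157S replicate 3 stood apart. Its Pearson correlations of log2 CPM across genes with the other 5 libraries were 0.948 to 0.976, against 0.975 to 0.990 for all other pairs. Genes are not independent replicates, and these correlations are a description. Fold changes are therefore also given without that library where it moved them.

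ERBB receptors are membrane tyrosine kinases that pair up when a ligand binds and then signal through RAS and ERK, PI3K and AKT, and STAT proteins. ERBB2 has no known ligand of its own and acts as a partner, and ERBB3 has a very weak kinase and depends on its partner. The ligands are made as membrane-bound precursors and are released by sheddases of the ADAM family. In the endometrium HBEGF is best known for its part in the attachment of the embryo to the epithelium.

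The promoter windows of EGFR and of the ligands HBEGF and AREG are given here as RefSeq lists them. Each runs from 250 bases before to 50 bases after the start (build GRCh38.p14). Of the 9 genes, 7 matched the promoter table. Capitals mark GC boxes (GGGCGG or its reverse complement CCGCCC) and the cyclic AMP response element (CRE) TGACGTCA, searched on both strands with overlapping matches allowed.

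EGFR, chr7:55018767-55019066, plus strand: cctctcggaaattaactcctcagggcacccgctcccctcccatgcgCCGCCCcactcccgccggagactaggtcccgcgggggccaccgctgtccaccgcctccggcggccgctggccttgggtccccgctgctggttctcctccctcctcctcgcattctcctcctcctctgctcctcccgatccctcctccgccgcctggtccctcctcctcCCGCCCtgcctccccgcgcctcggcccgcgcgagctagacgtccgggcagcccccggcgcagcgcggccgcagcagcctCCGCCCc
HBEGF, chr5:140346554-140346853, minus strand: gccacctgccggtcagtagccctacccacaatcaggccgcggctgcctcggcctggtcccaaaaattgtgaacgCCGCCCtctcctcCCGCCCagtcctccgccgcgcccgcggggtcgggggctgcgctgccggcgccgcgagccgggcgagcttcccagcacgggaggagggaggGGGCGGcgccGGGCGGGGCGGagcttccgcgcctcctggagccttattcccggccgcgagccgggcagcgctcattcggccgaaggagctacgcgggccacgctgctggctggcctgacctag
AREG, chr4:74444886-74445185, plus strand: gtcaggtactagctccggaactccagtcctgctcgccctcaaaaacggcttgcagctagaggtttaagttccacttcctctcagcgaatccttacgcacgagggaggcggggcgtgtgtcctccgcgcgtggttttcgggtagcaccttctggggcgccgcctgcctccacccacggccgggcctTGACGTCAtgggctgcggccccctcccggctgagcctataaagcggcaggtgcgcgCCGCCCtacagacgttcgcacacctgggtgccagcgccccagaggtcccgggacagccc

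The table lists a second window for EGFR, further downstream in the gene, which held 0 GC boxes and is not shown. Windows of ERBB2, EREG, BTC and TGFA are not shown either. They held 0 GC boxes for ERBB2 and EREG, 1 for BTC, and 4 and 0 for those of TGFA. The EGFR window shown held 3 GC boxes, the HBEGF window 5 and the AREG window 1, and 45% of all 35116 promoter windows of this length hold at least 1. Of the 3 windows only that of AREG held the CRE, which occurs in 1.85% of all windows. These matches are letters in a window and do not show that a factor binds there.

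The receptors EGFR and ERBB2 were the most abundant members and most ligands were scarce. On the FPKM scale, which divides by gene length and by library total, the order of the means over the 6 libraries was EGFR, ERBB2, HBEGF, ERBB3, AREG, NRG1, BTC, TGFA and EREG. EGFR, at a mean of 38.8 FPKM, lay above 89.6% of all genes in the tables and ERBB2, at 25.6 FPKM, above 83.6%. HBEGF was the only ligand above 1 FPKM in every library and made up 83.3% to 90.5% of the FPKM summed over 10 EGF family ligands. The order EGFR, ERBB2, HBEGF, ERBB3 held in 6 of 6 libraries without overlap of their ranges within either group. AREG and NRG1 overlapped in both groups and kept their order in 3 of 6 libraries. The ranges of ERBB3 and AREG overlapped in the rhChem157S group, as did those of BTC and TGFA and of TGFA and EREG.

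**Figure D1:**
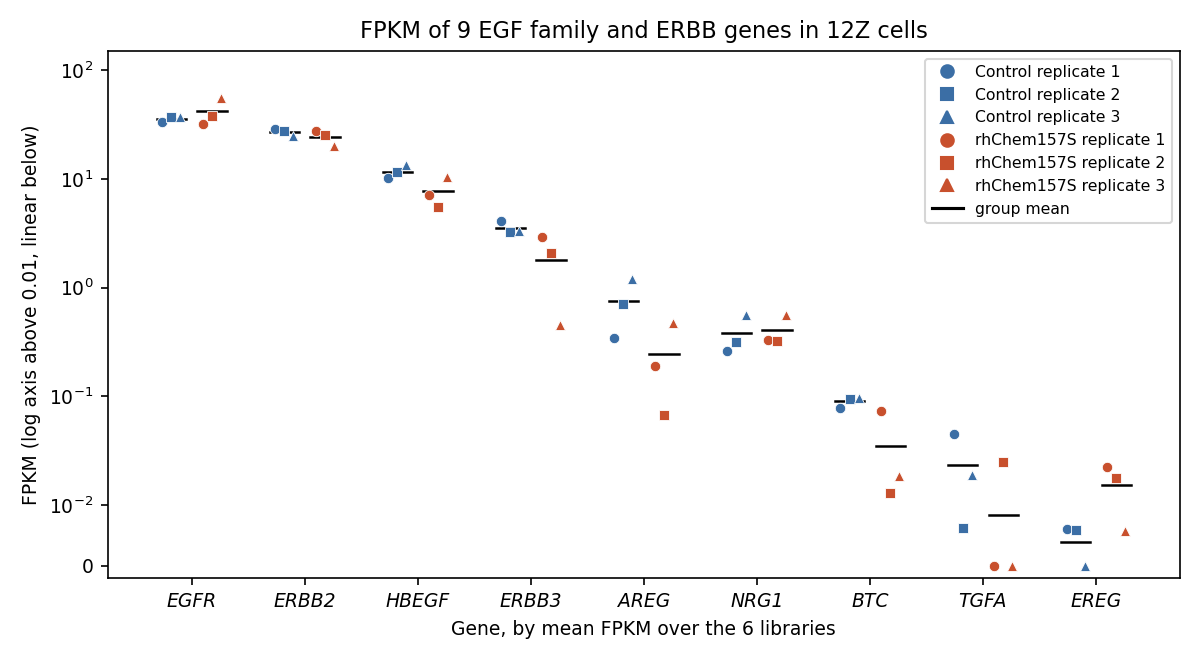
FPKM of the 9 genes (log axis above 0.01, linear below) in each of the 3 Control and 3 rhChem157S libraries, with horizontal lines at the group means. EGFR lies above ERBB2 in all 6 libraries, HBEGF is the most abundant ligand, and ERBB3 spans 0.457 to 4.10 FPKM with its lowest point in rhChem157S replicate 3.

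EGFR, the receptor for EGF, amphiregulin, epiregulin, HB-EGF, TGF-alpha and betacellulin, is on chromosome 7, positions 55019021 to 55211628 (GENCODE release 29, GRCh38). It reached an FPKM of 33.0, 37.3 and 36.8 in Control replicates 1 to 3 and 32.1, 37.6 and 55.7 in rhChem157S replicates 1 to 3. The groups overlapped, and the treated mean of 41.8 ± 12.4 (SD, n = 3) stood against a Control mean of 35.7 ± 2.32 (SD, n = 3), with rhChem157S replicate 3 well above the other 5 libraries. For EGFR the log2 fold change was 0.38 (standard error, SE, 0.23, 95% confidence interval -0.16 to 0.91), with an adjusted p of 0.353 from edgeR's quasi-likelihood test. Without rhChem157S replicate 3 it was 0.05, and without rhChem157S replicate 1 it was 0.55 with an adjusted p of 0.0368 from DESeq2 and 0.107 from edgeR. DESeq2 called 2687 of all genes tested without rhChem157S replicate 1, against 1407 with all libraries. Of the 12521 exon bases of EGFR in that release, 186 are shared with the antisense gene EGFR-AS1.

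ERBB2 (HER2), the partner receptor without a ligand, is on chromosome 17, positions 39687914 to 39730426. It reached an FPKM of 28.9, 27.7 and 24.6 in Control against 27.4, 25.1 and 20.0 with rhChem157S. The groups overlapped. The log2 fold change on TMM-scaled counts was -0.04 (SE 0.11, 95% confidence interval -0.29 to 0.21, adjusted p = 0.848, edgeR), the narrowest interval of the 7 genes tested. Its sign turned to positive without Control replicate 1 or without rhChem157S replicate 3, so no direction can be given. Of its 10321 exon bases in GENCODE release 29, 765 are shared with MIEN1 and PGAP3 on the opposite strand. The strand setting of the counting was not given in the sources used here.

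ERBB3 (HER3), the neuregulin receptor, lies on chromosome 12 from 56076799 to 56103505. Control replicates 1 to 3 had 824, 682 and 674 counts and rhChem157S replicates 1 to 3 had 633, 424 and 97. No treated library reached the lowest Control value, and rhChem157S replicate 3 was far below the other 5. The group means were 3.56 ± 0.471 FPKM (SD, n = 3) for Control and 1.81 ± 1.25 FPKM (SD, n = 3) for rhChem157S. The log2 fold change, -0.88 (SE 0.52, 95% confidence interval -2.10 to 0.34), did not pass the test (adjusted p = 0.341, edgeR; 0.241, DESeq2). Without rhChem157S replicate 3 the log2 fold change was -0.44 (SE 0.18, adjusted p = 0.179, edgeR), so that this library moved it by a factor above 1.5. Without rhChem157S replicate 1 it was -1.38.

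The receptor mix of each library followed from these values. EGFR took 49.9%, 54.5% and 56.8% of the FPKM summed over EGFR, ERBB2, ERBB3 and ERBB4 in Control against 51.3%, 58.0% and 73.1% with rhChem157S. ERBB3 took 6.19%, 4.79% and 5.09% in Control against 4.65%, 3.18% and 0.600% with rhChem157S. The ratio of EGFR to ERBB3 FPKM was 8.06 to 11.4 in the Control group and 11.03, 18.2 and 122 in the treated group, where only replicates 2 and 3 lay above the Control range.

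**Figure D2:**
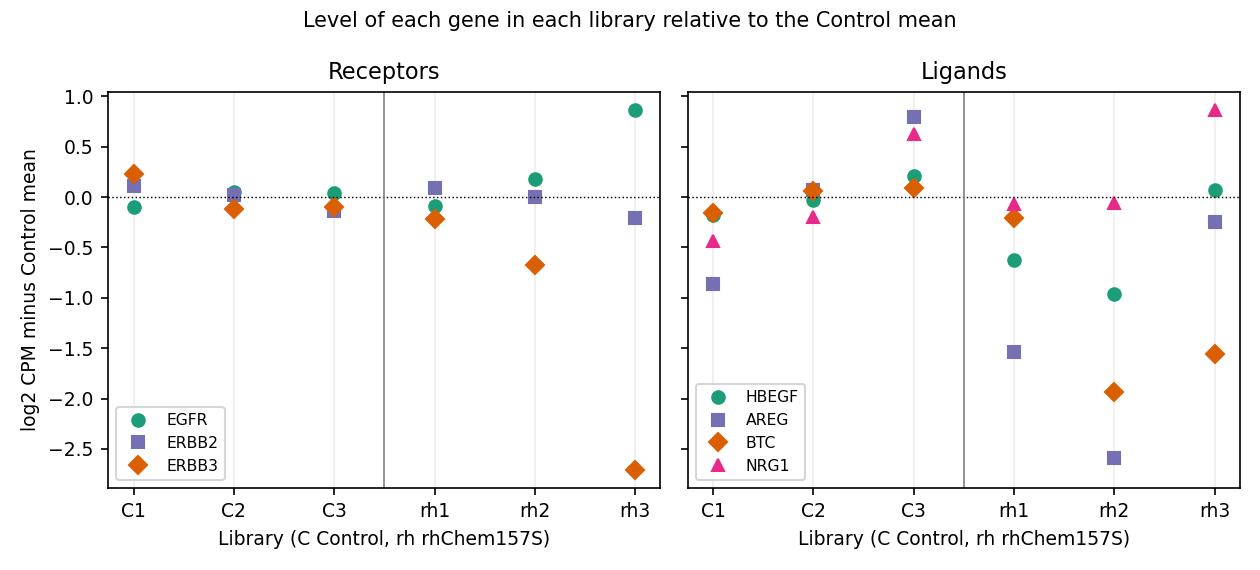
Log2 CPM of each tested gene minus its mean over the 3 Control libraries, for receptors (left) and ligands (right), by library (C1 to C3 Control, rh1 to rh3 rhChem157S). In rhChem157S replicate 3 EGFR lies 0.87 above and ERBB3 2.71 below the Control mean, whereas HBEGF and AREG are lowest in rhChem157S replicate 2.

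HBEGF, the heparin-binding EGF-like factor, lies on chromosome 5 from 140332843 to 140346631. It had 846, 991 and 1138 counts in Control against 648, 473 and 917 with rhChem157S. Treated replicates 1 and 2 were under the Control range, and replicate 3 lay within the Control range. Group means were 11.7 ± 1.64 FPKM (SD, n = 3) for Control and 7.70 ± 2.48 FPKM (SD, n = 3) for rhChem157S. The log2 fold change of -0.45 (SE 0.26, 95% confidence interval -1.05 to 0.15) did not pass the test (adjusted p = 0.324, edgeR; 0.287, DESeq2). Without rhChem157S replicate 3 it was -0.80 (SE 0.16) and passed, with an adjusted p of 0.0479 from edgeR and 2.99e-04 from DESeq2, the only edgeR call among the 9 genes in any setting tried. Without rhChem157S replicate 2 it was -0.26.

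AREG (amphiregulin), EREG (epiregulin) and BTC (betacellulin) lie with EPGN (epigen) in a stretch of 486214 bases on chromosome 4, from EPGN at 74308473 to the end of BTC at 74794686, with no other annotated protein-coding gene between them. Their levels were low. AREG, from 74445134 to 74455009, had 15, 32 and 53 counts in Control against 9, 3 and 22 with rhChem157S, and the groups overlapped. As for HBEGF, the lowest value was that of rhChem157S replicate 2 and the highest treated value that of replicate 3. Its log2 fold change was -1.44 (SE 0.77, 95% confidence interval -3.24 to 0.36, adjusted p = 0.300, edgeR). Without rhChem157S replicate 3 it was -2.43, with an adjusted p of 0.112 from edgeR and 0.0355 from DESeq2. DESeq2 called 1817 of all genes tested without that library, against 1407 with all libraries. Without Control replicate 3 the log2 fold change of AREG was -0.93.

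BTC, from 74744759 to 74794686, had 12, 15 and 15 counts in Control against 12, 2 and 3 with rhChem157S. In CPM no treated library reached the Control range, with replicate 1 at 0.313 just under the lowest Control value of 0.327, a gap smaller than the counting error of 12 reads. For BTC the log2 fold change was -1.23 (SE 0.68, adjusted p = 0.316, edgeR). Without rhChem157S replicate 1 it was -2.31 (adjusted p = 0.0851, edgeR), and it ranged from there to -0.86 with a library left out. AREG and BTC each reached 10 counts in all 3 Control libraries and in a single treated one, so they passed the filter on low counts mainly through the Control group. EREG, from 74365143 to 74388751, had 1, 1 and 0 counts in Control against 4, 3 and 1 with rhChem157S. TGFA, on chromosome 2 from 70447280 to 70554193, had 7, 1 and 3 counts in Control against 0, 4 and 0 with rhChem157S. EREG and TGFA did not pass the filter, and at this depth, where a count of 0 allows up to 0.0782 to 0.0847 CPM (3 counts per library, before TMM scaling, for counting error only), no difference was detectable.

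NRG1 (neuregulin 1), a ligand of ERBB3 and ERBB4 on chromosome 8, had 136, 170 and 295 counts in Control against 184, 170 and 308 with rhChem157S. The ranges of the groups overlapped in part, and replicate 3 was the highest of each group. NRG1 differed between the groups by a log2 fold change of 0.24 (SE 0.38, 95% confidence interval -0.64 to 1.12, adjusted p = 0.722, edgeR), and -0.15 without rhChem157S replicate 3. The spread of NRG1 within each group therefore exceeded the difference between the groups.

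**Figure D3:**
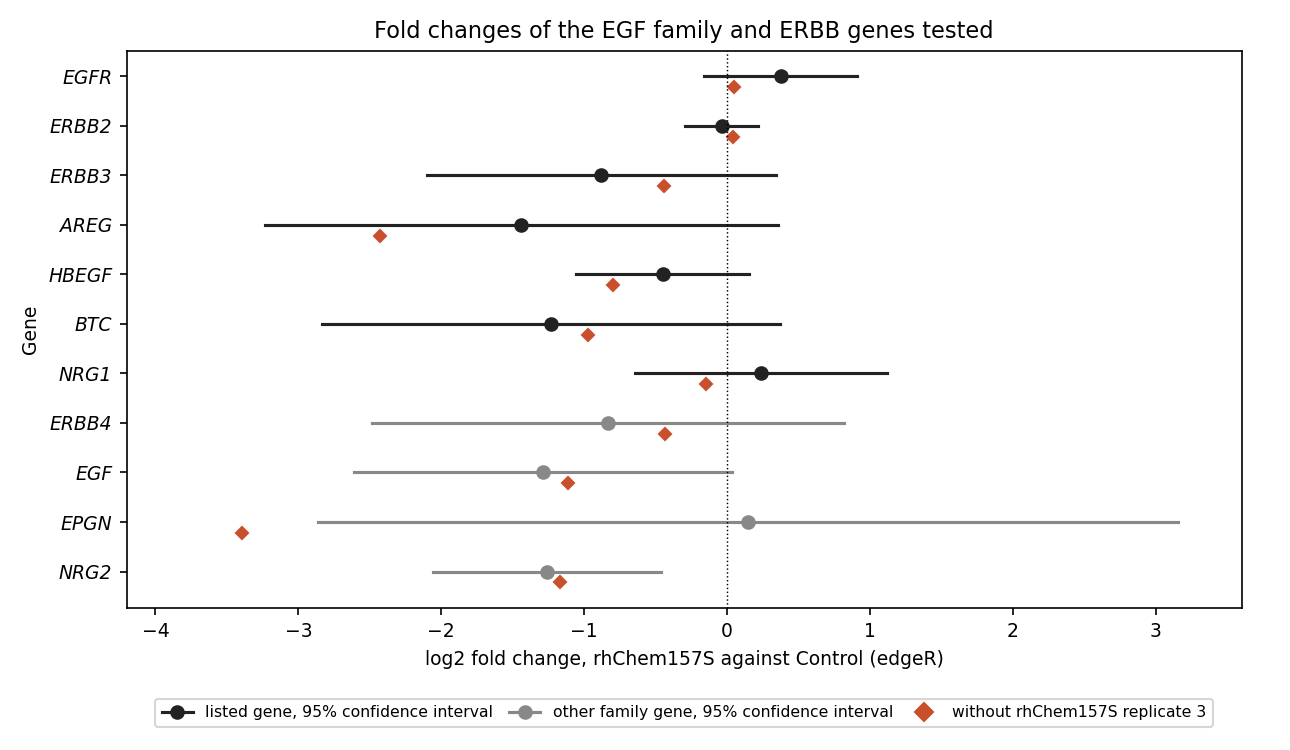
Log2 fold change (rhChem157S against Control, edgeR) of the 7 listed genes and 4 other family genes tested, with 95% confidence intervals, and the value without rhChem157S replicate 3 as diamonds. All 7 intervals of the listed genes cross 0, and leaving that library out moves HBEGF from -0.45 to -0.80 and EGFR from 0.38 to 0.05.

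Of the 9 genes, 7 passed the filter and 0 had an adjusted p under 0.05 with edgeR, where 0.0301% of all 13311 genes did. The count was also 0 with DESeq2, which called 10.6% of all genes, with limma on log2 FPKM, and with edgeR at an unadjusted p under 0.05, which 22.8% of all genes reached. The groups did not overlap in 2 of the 7 genes, or 28.6%, both lower with rhChem157S (ERBB3 and BTC), where 32.5% of all genes did not overlap and 16.0% were lower in this way. That share is close to the background and is no result about these genes. The log2 fold change was positive in 2 and negative in 5 of the 7, where 51.7% of all genes were positive, with a median of -0.45 against 0.01 over all genes tested. AREG and BTC, among the 5 negative genes, passed the filter mainly through the Control group, where they were higher. The count of signs and the median are therefore no result about these genes. With an exact two-sided permutation test, 3 libraries against 3 cannot go below p = 0.10.

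Of 6 further family genes on a list, 5 had a row in the tables and 4 were tested. NRG2, another neuregulin, had 85, 63 and 75 counts in Control against 40, 25 and 24 with rhChem157S, without overlap. Its log2 fold change was -1.26 (SE 0.34), with an adjusted p of 0.119 from edgeR and 0.0192 from DESeq2, which held in 2 of the 6 fits of DESeq2 with a library left out. EGF had 48, 70 and 62 counts in Control against 46, 9 and 16 with rhChem157S, again without overlap (log2 fold change -1.29, SE 0.56, adjusted p = 0.227, edgeR), though treated replicate 1 and Control replicate 1 differed by only 2 counts. Without rhChem157S replicate 1 DESeq2 called EGF (adjusted p = 0.0025), and its log2 fold change in edgeR ranged from -2.12 to -0.92 with a library left out. ERBB4, the fourth receptor, had a log2 fold change of -0.83 (SE 0.71) with overlapping groups, and ranged from -1.97 to -0.44 with a library left out. DESeq2 called it only without rhChem157S replicate 1 (adjusted p = 0.0223), where it called 2687 of all genes tested, against 1407 with all libraries. EPGN had 6, 11 and 35 counts in Control against 1, 2 and 49 with rhChem157S, so that replicate 3 was the highest of each group, and its log2 fold change of 0.14 (SE 1.28) was -3.39 without rhChem157S replicate 3. NRG4 had at most 5 counts and shares 1917 of its 5031 exon bases with FBXO22 on the opposite strand.

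The nearest genes in the tables were found by the root mean square difference of log2 CPM, centred on each gene's mean, over the 6 libraries. For EGFR, whose own spread was 0.329 on this scale, UTP4 differed by 0.0416 and NOP56 by 0.0502, and 108 genes lay within 0.1. For ERBB3, with a spread of 0.979, DNALI1 at 0.115 and CLYBL at 0.125 were nearest and 0 genes lay within 0.1. For HBEGF, with a spread of 0.409, TRIM47 differed by 0.0907 and AMIGO3 by 0.113. ERBB2 varied little, with a spread of 0.116, and 955 genes lay within 0.1 of it, led by PRMT2 and RTN3. NRG1 was nearest to SIK1B at 0.0743 and TSPAN13 at 0.101, AREG to GRIK5 at 0.300 and FZD9 at 0.303, and BTC to BFSP1 at 0.116 and ZNF608 at 0.139. Among the 21 pairs of the 7 tested members, EGFR and NRG1 were the closest at 0.309 and ERBB3 and AREG the farthest apart at 1.5. EGFR and ERBB3 differed by 1.30. These distances describe 6 libraries and carry no test.

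The wider pathway was read from 5 lists with 103 genes, of which 102 had a row and 100 were tested. With edgeR 0 of the 100 had an adjusted p under 0.05. An unadjusted p under 0.05 was reached by 25 of the 100, or 25%, 15 higher and 10 lower. Over all 13311 genes 22.8% reached it, 1518 higher and 1520 lower. The share of the pathway genes is close to that background and is no result about the pathway. DESeq2 called 11 of the 100, of which 6 were higher and 5 lower, a share close to the 10.6% of all genes. Without rhChem157S replicate 3, DESeq2 called 15 and edgeR 2 (ADAM12 and SHC2), and without rhChem157S replicate 1 they called 28 and 9. The calls over all 13311 genes rose too. They were 1407 and 4 with all libraries, 1817 and 414 without rhChem157S replicate 3, and 2687 and 862 without rhChem157S replicate 1.

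**Figure D4:**
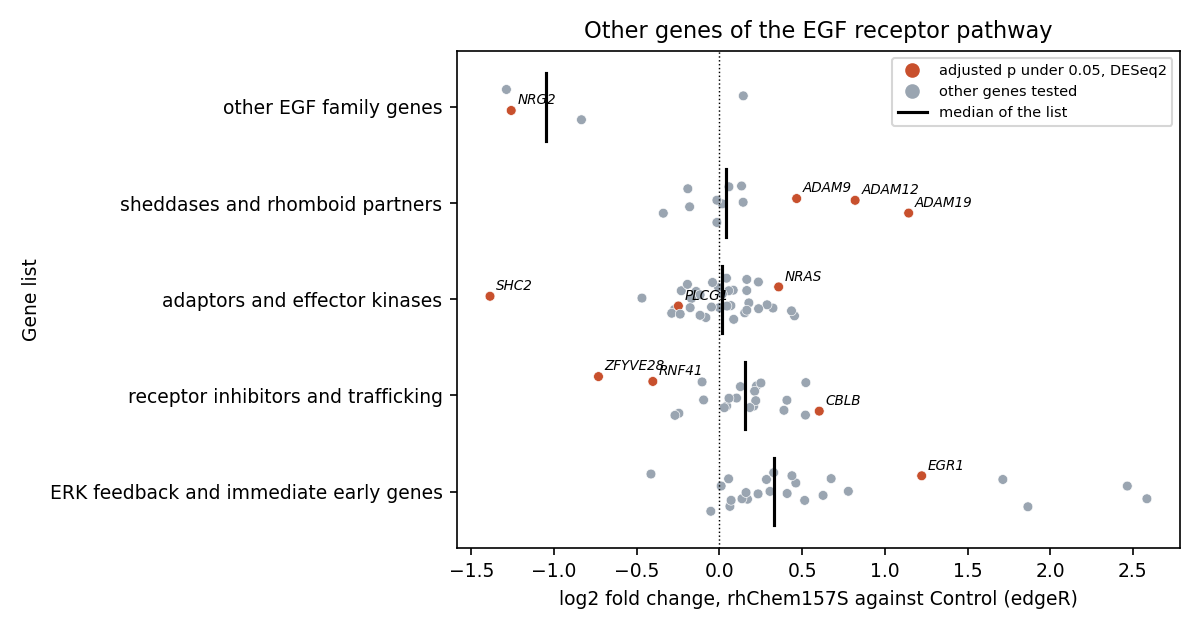
Log2 fold change (rhChem157S against Control, edgeR) of the 100 tested genes of 5 pathway lists, with the median of each list as a bar and the genes with an adjusted p under 0.05 from DESeq2 in red. ADAM9, ADAM12 and ADAM19 lie to the right among the sheddases, SHC2 lies to the left among the adaptors, and the medians range from -1.05 to 0.33.

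Among the 12 genes on the list of sheddases and rhomboid partners, 3 passed DESeq2's test, where 10.6% of all genes did, and all 3 were higher. ADAM12, which can cleave HBEGF, had 144, 133 and 114 CPM in Control against 205, 194 and 291 with rhChem157S, without overlap. Its log2 fold change was 0.82 (SE 0.17, adjusted p = 0.0825, edgeR; 6.45e-04, DESeq2), and DESeq2 called it in 6 of 6 fits with a library left out. ADAM9 had 566, 500 and 483 CPM in Control against 674, 775 and 692 with rhChem157S (log2 fold change 0.47, SE 0.10, adjusted p = 0.0944, edgeR; 0.00197, DESeq2). ADAM19 had 120, 129 and 173 CPM in Control against 147, 299 and 486 with rhChem157S, with overlap (log2 fold change 1.14, SE 0.39; adjusted p = 0.0218, DESeq2). DESeq2 called ADAM9 in 5 of 6 fits with a library left out and ADAM19 in 2. ADAM19 had a log2 fold change of 0.66 without rhChem157S replicate 3, with an adjusted p of 0.328 from DESeq2. ADAM17, the main sheddase of AREG, TGFA and HBEGF, had 76.2 to 87.0 CPM in Control against 67.5 to 74.8 with rhChem157S (log2 fold change -0.19, SE 0.09, adjusted p = 0.247, edgeR). ADAM10, which releases BTC and EGF, had a log2 fold change of 0.13 (SE 0.09) with overlapping groups. ADAM17 and ADAM10 are described after their values were seen.

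Among 37 adaptors and effector kinases the median log2 fold change was 0.02. DESeq2 called 1 higher and 2 lower, or 8.11%, where it called 10.6% of all genes. SHC2, an adaptor of the SHC family that links receptors to RAS, had 11.9, 12.8 and 9.49 CPM in Control against 5.43, 4.42 and 3.19 with rhChem157S. Its log2 fold change was -1.39 (SE 0.24, adjusted p = 0.0707, edgeR; 1.11e-05, DESeq2), and DESeq2 called it in 6 of 6 fits with a library left out. PLCG1, a phospholipase that binds active EGFR, had 220 to 222 CPM in Control against 185 to 187 with rhChem157S, and NRAS, a RAS GTPase, 104 to 110 and 127 to 156. Their log2 fold changes were -0.25 (SE 0.07; adjusted p = 0.00813, DESeq2) and 0.36 (SE 0.10; adjusted p = 0.0344, DESeq2), and DESeq2 called each in 2 of 6 fits with a library left out.

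Among 22 tested receptor inhibitors and trafficking genes, DESeq2 called 1 higher and 2 lower, or 13.6%, where it called 10.6% of all genes. CBLB, a ubiquitin ligase that tags active receptors for breakdown, had 39.9 to 47.8 CPM in Control against 52.3 to 81.7 with rhChem157S (log2 fold change 0.60, SE 0.17; adjusted p = 0.0272, DESeq2). RNF41, a ubiquitin ligase that acts on ERBB3, had 68.6 to 81.2 CPM in Control against 48.3 to 62.8 with rhChem157S (log2 fold change -0.40, SE 0.12; adjusted p = 0.04995, DESeq2). ZFYVE28, which promotes the breakdown of EGFR in endosomes, had 12.5 to 15.8 and 7.80 to 9.35 CPM (log2 fold change -0.73, SE 0.16; adjusted p = 0.00178, DESeq2). The groups did not overlap in these 3 genes, as in 36.4% of the list and 32.5% of all genes. With a library left out, DESeq2 called CBLB in 4 of 6 fits, RNF41 in 2 and ZFYVE28 in 5.

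Among 25 ERK feedback and immediate early genes, 23 had a positive and 2 a negative log2 fold change, with a median of 0.33, where 51.7% of all genes were positive. That count rested on rhChem157S replicate 3. Without it 10 were positive and 15 negative, with a median of -0.06, where 49.3% of all genes were positive. DESeq2 called 1 of the 25, or 4%, where it called 10.6% of all genes. This was EGR1, with 14.2 to 22.8 CPM in Control against 32.5, 24.0 and 74.1 with rhChem157S. Its log2 fold change was 1.22 (SE 0.41), with an adjusted p of 0.0222 from DESeq2, which was 0.0568 without rhChem157S replicate 3. The feedback phosphatase DUSP6 had 7.98 to 17.4 CPM in Control against 9.86, 33.0 and 97.5 with rhChem157S, and the cyclin CCND1 1.09 to 4.29 and 1.15, 5.41 and 32.4. Both were highest in rhChem157S replicate 3, the library in which EGFR was also highest and ERBB3 lowest, and both were picked after their values were seen. Without that library their log2 fold changes were 0.73 and 0.47, against 1.87 and 2.47 with it, and DESeq2 called them only without rhChem157S replicate 1. The part of that library's state in the EGFR and ERBB3 values was not tested.

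The marker genes gave a mixed picture of the line. The keratins KRT8 (749 to 966 FPKM), KRT18 and KRT19 carried the 7 epithelial markers, whose sum was 1596 to 1866 FPKM in the Control group and 1760 to 1976 in the treated group. That sum hides markers that differed the other way. EPCAM (0.387 to 0.807 FPKM in Control, 0.125 to 0.277 with rhChem157S) and CDH1 (0.237 to 0.381 and 0.0859 to 0.201) did not overlap between the groups, with adjusted p = 0.165 and 0.188 from edgeR and 0.115 and 0.125 from DESeq2. MUC1 had a log2 fold change of -0.57 (SE 0.17; adjusted p = 0.0363, DESeq2; 0.135, edgeR). Of the hormone receptors, ESR1 stayed at or under 0.0310 FPKM. ESR2 had 15, 15 and 16 counts in Control against 4, 5 and 4 with rhChem157S. It passed the filter on low counts only through the Control group, where it was higher. Its log2 fold change was -1.71 (SE 0.50; adjusted p = 0.135, DESeq2; 0.128, edgeR). PGR differed the other way with overlapping groups (log2 fold change 0.71, SE 0.26; adjusted p = 0.0912, DESeq2; 0.173, edgeR). The 8 stromal markers, led by COL1A1 and COL3A1, summed to 1703 to 2198 FPKM in the Control group and 1170 to 2312 in the treated group, with the lowest sum in rhChem157S replicate 3. PDGFRA was the only 1 of the 8 called by DESeq2, and was higher with rhChem157S (log2 fold change 0.79, SE 0.22, adjusted p = 0.0212 from DESeq2 and 0.124 from edgeR). Of the 8 stromal markers 5 had a positive and 3 a negative log2 fold change. The 3 negative ones were PDGFRB at -0.60 (SE 0.37), COL1A2 at -0.47 (SE 0.31) and COL3A1 at -0.16 (SE 0.33). The 5 endothelial markers summed to 1.61 to 2.01 FPKM in the Control group and 0.991 to 1.41 in the treated group, with TEK at 0 in 5 of 6 libraries, and VWF was lower with rhChem157S (log2 fold change -1.97, SE 0.52; adjusted p = 0.00608, DESeq2; 0.117, edgeR). Of 5 immune markers 3 had a row, summing to 122 to 171 FPKM in the Control group and 92.7 to 136 in the treated group, and PTPRC stayed at or under 0.0535 FPKM. CD14, whose difference that sum hides, had 53.9 to 75.9 CPM in Control and 11.3 to 32.4 with rhChem157S (log2 fold change -1.49, SE 0.35; adjusted p = 5.11e-04, DESeq2; 0.1003, edgeR). CD68, the largest part of the immune sum, had a log2 fold change of 0.11 (SE 0.26) with overlapping groups. The part of these marker levels in the values of the EGF family genes was not tested.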

How the data were processed

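RNA of 12Z cells (3 Control and 3 rhChem157S libraries) was sequenced as paired-end reads. The authors trimmed reads with fastp, aligned them to GRCh38.p13 with HISAT2 and deposited read counts per gene from HTSeq-count, without normalization; the strand setting, annotation release and tool versions were not given in the sources used here. They also deposited FPKM, which in 89195 of 89195 values above 0 could be rebuilt from the count, the library total and 1 length per gene (relative tolerance 0.001). Columns of annotation were not used.

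Counts were tested in R 4.3.3 with edgeR 4.0.16 (TMM factors, filterByExpr with the group, quasi-likelihood test, two-sided, Benjamini-Hochberg over 13311 genes). Standard errors are the log2 fold change over the root of F. DESeq2 1.42.0 on the same genes and limma 3.58.1 on log2 FPKM with a pseudocount of 1 or 0.1 were alternatives, with other scalings, filters, dispersion settings, a replicate block, and each library left out. DESeq2 with each library left out was added after the data were seen. The code of edgeR, DESeq2 and limma was checked on simulated counts with 200 genes changed by a log2 fold change of size 2. The simulation gave every gene the same dispersion and had no library that stood apart. In it limma used log2 CPM in place of log2 FPKM, and the replicate block was not simulated. That check does not show how the tests behave on these data. Log2 CPM used a prior count of 2.

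The members and lists were chosen with earlier results of these data known. The text names the members, the other family genes, list genes called by edgeR or DESeq2, the 2 nearest genes of each member, and the markers. ADAM10, ADAM17, DUSP6 and CCND1 were named after their values were seen. Promoters came from RefSeq (GRCh38.p14), and gene positions, exon bases and overlaps from GENCODE release 29 (GRCh38). The lengths rebuilt from FPKM were different, at 10869 bases for EGFR, 6006 for ERBB2 and 21824 for NRG4. The overlaps therefore need not hold in the gene models that were counted. Replicates were compared first, and no 2 libraries agreed within sampling noise.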

Additional observations from a re-analysis of the deposited data

How the results depend on the processing

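For the 7 tested genes, the direction held under each other scaling, filter, dispersion setting and test that was run. AREG and BTC were not tested under the filter of at least 1 CPM in 3 libraries. It turned for ERBB2, to 0.018 without Control replicate 1 (0.014 with DESeq2) and 0.038 without rhChem157S replicate 3 (0.04 with DESeq2), and for NRG1, to -0.15 without rhChem157S replicate 3 (-0.14 with DESeq2). The cause was not tested. With a library left out, edgeR gave -0.114 to 0.038 for ERBB2, -0.15 to 0.63 for NRG1 and -0.80 to -0.26 for HBEGF. Calls appeared only with a library left out. Without rhChem157S replicate 3, edgeR called HBEGF (-0.80), 1 of the 9 genes, and DESeq2 called HBEGF (-0.79) and AREG (-2.45), 2 of the 9. The same fits called 414 of all genes tested with edgeR and 1817 with DESeq2, against 4 and 1407 with all libraries. Without rhChem157S replicate 1, DESeq2 called EGFR (0.56), 1 of the 9, where it called 2687 of all genes tested.

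The number of all genes called, 4 with edgeR, was 1407 with DESeq2, 0 with upper-quartile factors (2908 at an unadjusted p under 0.05), 17 without a filter on low counts, 15 with the other legacy setting of edgeR, and 179 and 23 with limma at pseudocounts of 1 and 0.1. With a library left out it ran from 0 (without any Control library or rhChem157S replicate 2) to 862 without rhChem157S replicate 1 in edgeR, with 414 without rhChem157S replicate 3. DESeq2 called 762, 309 and 581 without Control replicates 1, 2 and 3 and 2687, 671 and 1817 without rhChem157S replicates 1, 2 and 3. The 100 pathway genes gave 0 calls with edgeR, 11 with DESeq2 and 1 with limma at a pseudocount of 1. With a library left out they gave 0 to 9 calls in edgeR, and in DESeq2 7, 2 and 5 (Control) and 28, 6 and 15 (rhChem157S), in the same order. With library size only, all genes together had a median of -0.12, and the signs of the 7 genes were the same.

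The replicate numbers name biological replicates and no shared batch. Same-numbered libraries correlated in their deviations from the group mean at 0.24, 0.00 and 0.25. Differently numbered pairs across the groups ran from -0.31 to 0.11. The labels state no pairing and the main fit used none, but whether the numbers pair the libraries was not settled. With the replicate block edgeR called 1 gene of all and 0 of the 9, and 2 of the 9 had an unadjusted p under 0.05. The 2 members were ERBB3 (log2 fold change -1.13, SE 0.42, unadjusted p = 0.034, adjusted p = 0.166) and HBEGF (-0.50, SE 0.17, unadjusted p = 0.0217, adjusted p = 0.141). EGFR had 0.32 (SE 0.17) and NRG1 0.25 (SE 0.21) in that fit. Counts under about 10 limit AREG, BTC, EREG and TGFA.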
